A study of Mus musculus with 6 samples.

Results

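Clock output and modifier genes were described in liver of wild-type mice (WT) and of mice labelled Sec15 knockout (KO). The set held 9 genes, namely Ciart, Dbp, Tef, Hlf, Nfil3, Bhlhe40, Bhlhe41, Rora and Noct (older name Ccrn4l). They are 9 of 20659 genes with a symbol on the array. All probes whose transcript accession matched one of these symbols were kept, 11 of 39429 probes, with 2 each for Dbp and Bhlhe41. The genes were chosen by symbol, with the difference between KO and WT signal on these same arrays already known, so their values are a description and carry no p-value. Total RNA was taken from liver of 6-week-old male mice, with no treatment in either group, and hybridised to 6 one-colour (Cy3) oligonucleotide arrays. The groups were 3 WT samples and 3 samples labelled Sec15 KO. Sec15 belongs to the exocyst, which docks secretory vesicles at the cell surface, and the series is about the traffic of the transcription factor STAT3 and blood stem cells. The labels give neither the strain, the allele, the tissue in which the deletion was made, the hour of collection nor the feeding state.

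The circadian clock of liver cells is a loop in which the activators CLOCK and BMAL1 (gene Arntl) bind E-box sequences, and the PER and CRY proteins that they induce repress them. Output factors carry the rhythm to metabolism: the PAR bZIP activators DBP, TEF and HLF bind D-box sequences, and the repressor NFIL3 competes for the same sites. BHLHE40, BHLHE41 and CIART repress at E-boxes, RORA activates Arntl through sites that the repressors REV-ERB alpha and beta also bind, and nocturnin (Noct) is a rhythmic enzyme related to deadenylases.

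Each array had 64.8% to 70.3% of its probes well above background, with 0 saturated spots. All values below are log2 signals minus the array's 75th percentile, so 0 is the level of that percentile and each probe is read only against itself. The file headers give 2 scan times: all WT arrays and KO replicate 2 belong to scan 1, and KO replicates 1 and 3 to scan 2. The value of KO replicate 2 minus the WT mean is therefore given as the difference within scan 1; it rests on 1 KO array. Nothing in the labels ties each sample to an animal of its own, and a number recurs in the deposited names of WT replicates 1 and 2, so p-values cover only the spread among these samples, part of which may be technical. The genes for mouse Sec15 are Exoc6 and Exoc6b; which of them was deleted is not stated in the labels. The Exoc6 probe passed background clearly on 1 WT array and no KO array, and Exoc6b probe A_52_P265544 on no array. The other Exoc6b probe read 0.31, 0.78 and 0.55 in WT and 0.14, -0.03 and -0.06 in KO (difference -0.53, SE 0.15, limma adjusted p = 0.0436), and did not pass with scan as a block. Where these probes lie relative to the deletion is not given, so they do not check the labels.

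The fit covered the 27054 probes with signal well above background on 3 or more of the 6 arrays. A probe is called here when its limma p, after Benjamini-Hochberg adjustment over these probes, lay under 0.05. By that rule 4595 probes (17.0%) were higher and 3145 (11.6%) lower in KO. Centring on the median instead moved the share of calls that were higher from 59.4% to 70.1% (5941 higher, 2534 lower), and cyclic loess moved it to 47.8% (2947 higher, 3220 lower). Without WT replicate 2, WT replicate 3, KO replicate 1 or KO replicate 3 the number higher was 1344, 204, 1637 or 486 and the number lower 1181, 151, 1327 or 513, and without KO replicate 2 the number lower was 5792. All 3 KO values lay above all 3 WT values for 30.6% of the tested probes and below them for 19.6%. The median difference over all tested probes was 0.08.

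Of the 11 probes, 9 passed the filter and both Bhlhe41 probes did not. Of these 9, 3 were called higher in KO: Ciart, Dbp probe A_55_P2032081 and Bhlhe40. None was called lower, and at an unadjusted limma p under 0.05 the numbers were 5 higher and 0 lower, beside 12177 of all 27054 probes in either direction. For 5 of the 9, the KO values lay above the WT values with no overlap: Ciart, Dbp probe A_55_P2032081, Tef, Bhlhe40 and Rora. The median difference of the 9 probes was 0.45, and 0.20 after cyclic loess. Ciart passed the filter only through its KO arrays and so had to differ, and nothing is read from these counts since the same contrast was in view when the genes were chosen.

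**Figure D1:**
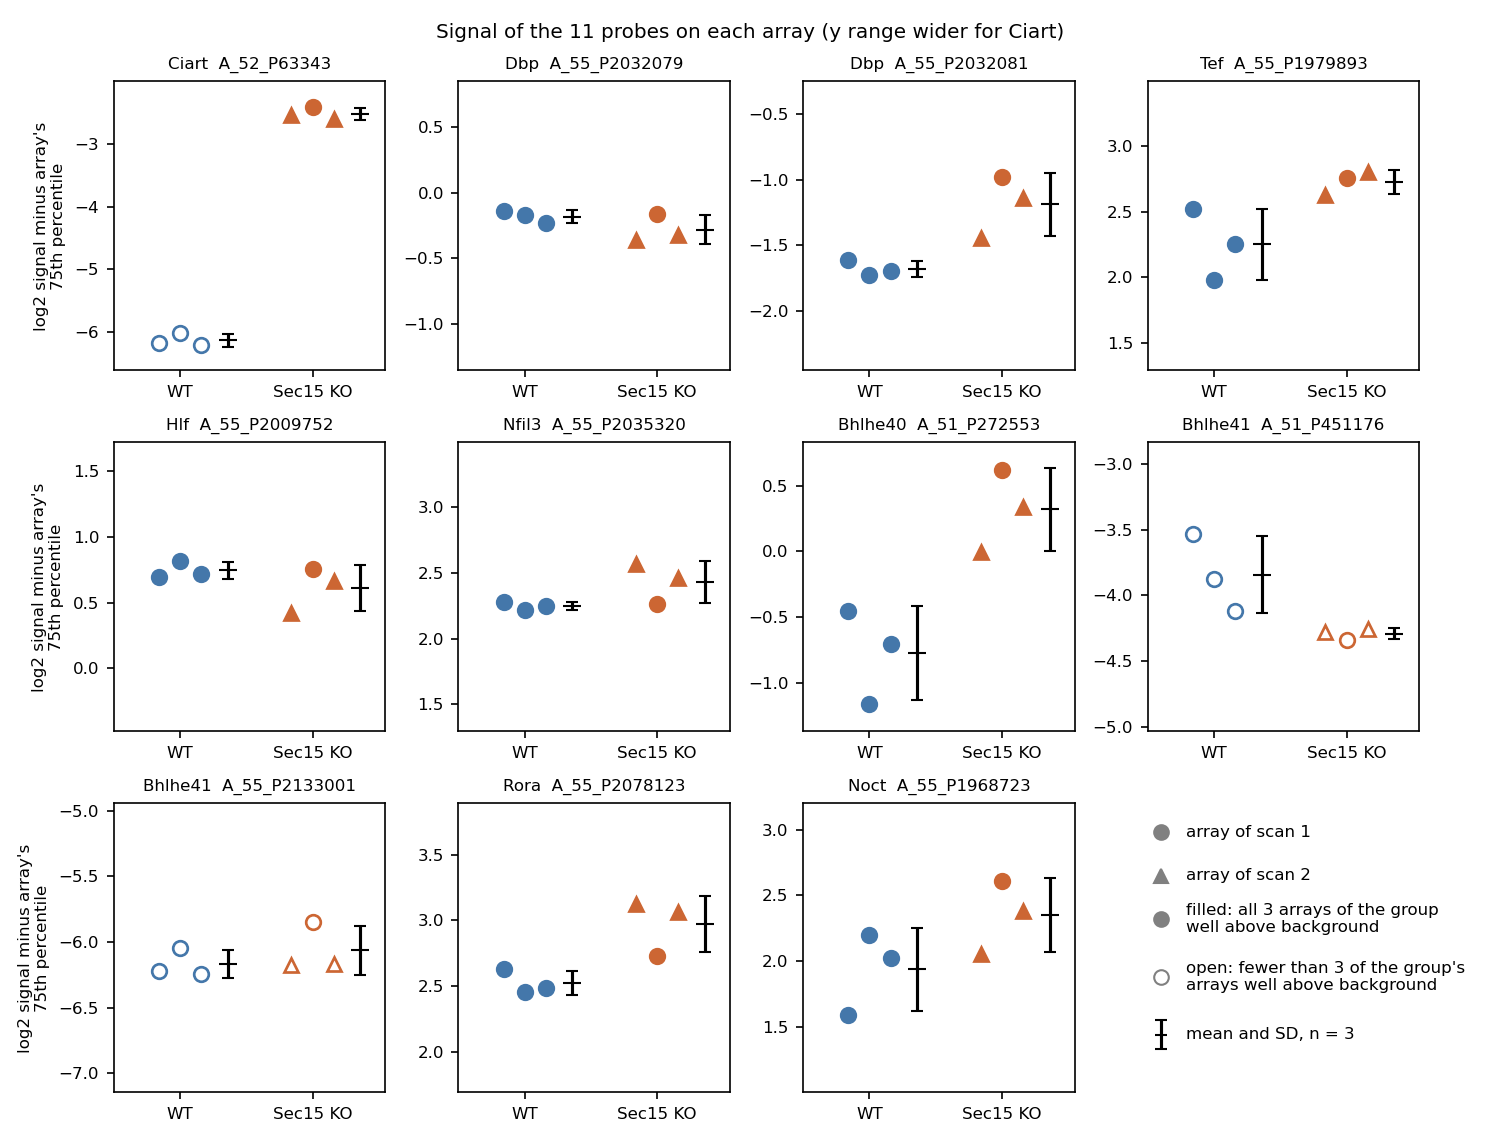
Log2 signal minus the array's 75th percentile (y axis) on each of the 6 arrays for the 11 probes, WT in blue and Sec15 KO in orange, with scan 1 as circles and scan 2 as triangles. Bars are mean and SD of 3 arrays, and open symbols mark groups with fewer than 3 arrays well above background. Ciart is open in WT (-6.20 to -6.01) and filled in KO (-2.60 to -2.42), while both Bhlhe41 probes are open in both groups.

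Ciart, also called Chrono, encodes a repressor that binds BMAL1 and dampens E-box transcription. Its single probe, A_52_P63343, was detected well over background by each of the 3 KO arrays and by no WT array. It read -6.17, -6.01 and -6.20 in WT and -2.54, -2.42 and -2.60 in KO. As measured, 3.41 lay between the highest WT and the lowest KO value, with a spread of at most 0.19 within a group. The WT values were not well above background, so neither the gap nor the WT spread is read as a property of the gene. In deposited units the processed signals were 4.34, 4.31 and 3.51 in WT and 48.1, 49.9 and 39.5 in KO. Since the WT level has only an upper bound, the change is given as at least 2.91-fold higher in KO. That bound sets the KO mean against the WT mean of the lowest signals well above background on each array (the probe's own signal where higher). KO replicate 2, within scan 1, lay 3.71 above the WT mean as measured. With normexp, a background correction that here adds 50 to every signal, the measured difference was 0.92 instead of 3.61.

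The 250 bases before the Ciart start site are shown because they hold the most E-boxes among the promoters examined. The RefSeq table (build GRCm38.p6) places them at chr3:95882229-95882478 on the minus strand, and capitals mark the E-box CACGTG, which reads the same on both strands:
Ciart: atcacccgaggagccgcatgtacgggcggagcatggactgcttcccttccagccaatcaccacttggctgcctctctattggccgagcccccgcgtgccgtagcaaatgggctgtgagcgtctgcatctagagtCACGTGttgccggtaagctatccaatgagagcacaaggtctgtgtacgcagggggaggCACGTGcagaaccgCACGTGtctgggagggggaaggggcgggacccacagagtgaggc
The E-boxes begin 116, 58 and 44 bases before the start site.

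Dbp, Tef and Hlf form the PAR bZIP group of D-box activators. The Dbp probes, both matched to the same transcript, went apart. Probe A_55_P2032081 read -1.61, -1.73 and -1.70 in WT and -1.45, -0.98 and -1.14 in KO. The KO values were higher without overlap, by 0.49 (SE 0.14, 1.41-fold), with the lowest KO value 0.16 above the highest WT value. Within scan 1 its difference was 0.70, and the call ended with scan or the replicate number as a block. This probe lost its call without each WT replicate in turn and without KO replicate 2 or 3, at differences between 0.39 and 0.52, and it was called in 6 of 16 alternative settings. Probe A_55_P2032079 read -0.14, -0.17 and -0.23 in WT and -0.36, -0.16 and -0.32 in KO. These groups overlapped, since KO replicate 2 lay among the WT values, and the difference was -0.10 (SE 0.10). It turned to 0.02 with median centring and also within scan 1, so no direction is given for this probe or for Dbp as a gene.

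Tef read 2.52, 1.98 and 2.25 in WT and 2.63, 2.76 and 2.80 in KO on probe A_55_P1979893. The WT arrays spread over 0.53 and the KO arrays lay above them, the closest by 0.11. The difference was 0.48 (SE 0.16, 1.39-fold), 0.51 within scan 1 and 0.23 after cyclic loess, and it was not called. A larger difference in either direction was measured for 37.9% of the tested probes. Tef was called in 4 of 16 alternative settings: without WT replicate 1, with WT replicates 1 and 2 averaged, with median centring and with trend and robust eBayes (differences 0.61, 0.48, 0.60 and 0.48).

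Tef has a pair of start sites in the RefSeq table, and the 250 bases before each are shown because both hold an E-box (capitals). They lie on the plus strand at chr15:81802423-81802672 for start site 1 and at chr15:81811164-81811413 for start site 2 (GRCm38.p6):
Tef start site 1: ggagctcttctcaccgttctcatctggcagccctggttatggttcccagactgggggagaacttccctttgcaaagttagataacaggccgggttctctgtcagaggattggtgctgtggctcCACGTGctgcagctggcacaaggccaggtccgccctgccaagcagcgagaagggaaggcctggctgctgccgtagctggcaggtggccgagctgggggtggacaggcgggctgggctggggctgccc
Tef start site 2: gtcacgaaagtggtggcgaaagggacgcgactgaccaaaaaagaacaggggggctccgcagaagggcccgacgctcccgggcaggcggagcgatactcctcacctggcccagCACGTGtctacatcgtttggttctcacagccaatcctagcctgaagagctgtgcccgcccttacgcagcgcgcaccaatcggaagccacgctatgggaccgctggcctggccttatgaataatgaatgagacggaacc
The E-boxes begin 127 and 138 bases before the start sites.

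Hlf gave no difference beyond its spread. Its probe A_55_P2009752 read 0.70, 0.82 and 0.72 in WT and 0.42, 0.75 and 0.67 in KO. The groups overlapped, with KO replicate 1 the lowest of the 6 arrays. The difference of -0.13 (SE 0.12) became 0.01 within scan 1, so its direction did not hold.

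Nfil3 encodes the bZIP repressor of the same D-box sites. Its probe A_55_P2035320 read 2.28, 2.22 and 2.25 in WT and 2.57, 2.26 and 2.46 in KO. The KO arrays of scan 2 were the highest, while KO replicate 2 lay within the WT range. The difference was 0.19 (SE 0.11), 0.01 within scan 1 and -0.05 after cyclic loess, and it was not called. Without KO replicate 2 it was 0.27.

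The 250 bases before the Nfil3 start site are shown for the only match to the ROR and REV-ERB core AGGTCA among these promoters. They lie at chr13:52981040-52981289 on the minus strand (GRCm38.p6), and the capitals mark the core as it reads on the opposite strand:
Nfil3: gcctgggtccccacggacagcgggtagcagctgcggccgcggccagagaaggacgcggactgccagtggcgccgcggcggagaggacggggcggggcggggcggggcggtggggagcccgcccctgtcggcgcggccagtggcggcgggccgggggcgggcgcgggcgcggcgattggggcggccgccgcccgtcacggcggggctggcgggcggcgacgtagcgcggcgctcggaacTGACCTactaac
The match begins 12 bases before the start site.

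Bhlhe40 and Bhlhe41 (DEC1 and DEC2) encode bHLH repressors that bind E-boxes and thereby limit the activators of the loop. Bhlhe40 probe A_51_P272553 read -0.45, -1.17 and -0.71 in WT and 0.00, 0.62 and 0.34 in KO. Each KO value was above each WT value, with 0.45 between the closest arrays and a spread of up to 0.71 within a group. The difference was 1.09 (SE 0.24, 2.13-fold higher in KO). A larger difference in either direction was measured for 9.16% of the tested probes. KO replicate 2 lay 1.40 above the WT mean within scan 1, and the other KO arrays 0.94 on average. Its difference was between 0.79 and 1.40 in 16 alternative settings and was called in 11 of them. The call ended without WT replicate 2, WT replicate 3 or KO replicate 3, where the difference was 0.90, 1.13 and 1.08, and also with scan or the replicate number as a block.

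Bhlhe41 could not be compared. Probe A_51_P451176 read -3.53, -3.88 and -4.12 in WT and -4.28, -4.34 and -4.25 in KO, with 1 WT array and no KO array well above background. No fold is given, since most arrays of both groups have only an upper bound. Probe A_55_P2133001 was well above background on no array.

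The 250 bases before the Bhlhe41 start site are shown as those of the third gene with an E-box (capitals). They lie at chr6:145865421-145865670 on the minus strand (GRCm38.p6):
Bhlhe41: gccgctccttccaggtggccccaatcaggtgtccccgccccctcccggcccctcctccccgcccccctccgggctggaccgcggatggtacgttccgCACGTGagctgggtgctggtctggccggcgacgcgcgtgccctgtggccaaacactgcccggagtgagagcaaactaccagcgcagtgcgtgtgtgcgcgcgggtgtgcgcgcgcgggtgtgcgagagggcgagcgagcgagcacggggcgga
The E-box begins 153 bases before the start site.

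Rora encodes the nuclear receptor that activates Arntl in opposition to REV-ERB. Probe A_55_P2078123 read 2.63, 2.45 and 2.48 in WT and 3.13, 2.73 and 3.06 in KO. The KO arrays of scan 2 were the highest, and KO replicate 2 was 0.10 above the highest WT array. The difference was 0.45 (SE 0.14, 1.37-fold), 0.21 within scan 1 and 0.20 after cyclic loess, and it was not called. It was called in 3 of 16 alternative settings: without KO replicate 2 (0.57), with the filter on all 6 arrays and with trend and robust eBayes (0.45 in both). A larger difference was measured for 40.4% of the tested probes.

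Noct encodes nocturnin, a nuclease-like enzyme with deadenylase relatives that removes a phosphate from NADP and NADPH. Probe A_55_P1968723 read 1.59, 2.20 and 2.03 in WT and 2.05, 2.61 and 2.38 in KO. The groups overlapped, since KO replicate 1 lay below WT replicate 2. The difference of 0.41 (SE 0.21) was 0.67 within scan 1 and 0.18 after cyclic loess, positive in all 16 alternative settings and called in none. Without WT replicate 1 it was 0.24.

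**Figure D2:**
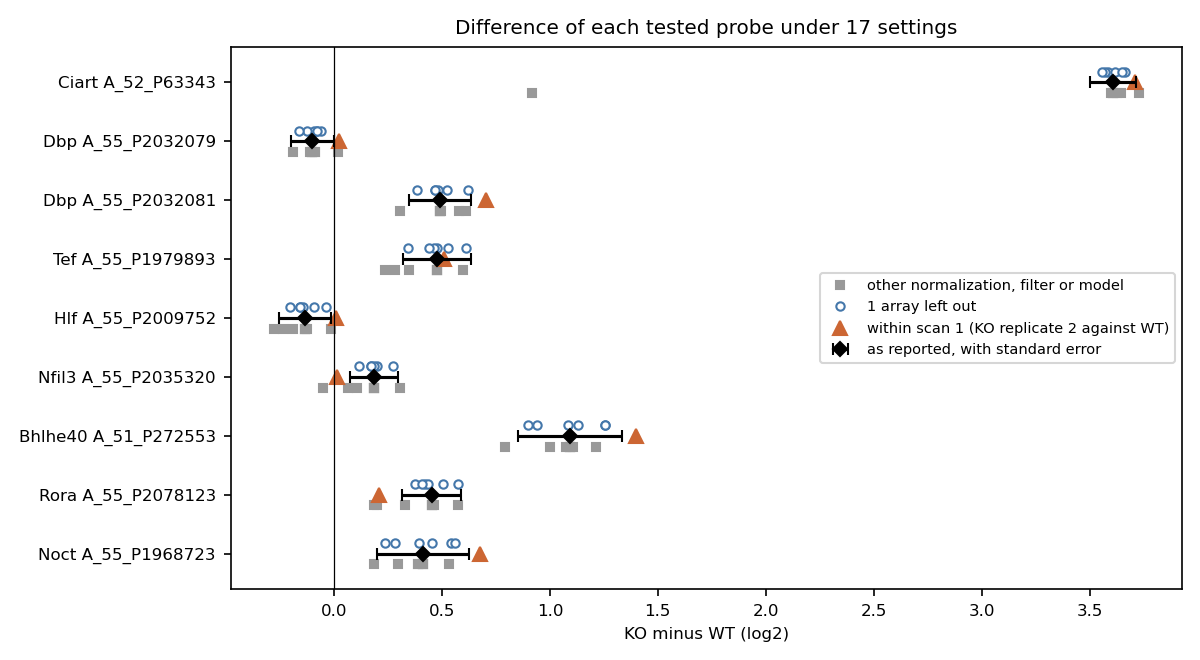
Difference between KO and WT (x axis, log2) for the 9 probes that passed the filter, as reported with its standard error (black), within scan 1 (orange), with 1 array left out (open blue) and under other normalizations, filters or models (grey). Ciart lies at or above 3.56 except at 0.92 with normexp, but its WT values are only upper bounds. Its points are therefore not sizes of a change and say nothing about stability. Dbp probe A_55_P2032079, Hlf and Nfil3 have values on both sides of 0.

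Among the promoters, RefSeq windows of 300 bases (250 before and 50 after the start site) were found for 8 of the 9 genes, 9 windows in all. Bhlhe40 is named only. The windows were searched on both strands for the E-box CACGTG, the D-box in its forms TTACGTAA and TTATGTAA, and the ROR and REV-ERB core AGGTCA, and no matches overlapped. An E-box was present in 4 windows, of Ciart, Tef (both start sites) and Bhlhe41, against 7.15% of all 32851 windows of this length. The D-box was in 0 of the 9 windows and in 1.06% of all, and the core was in 1 of the 9 and in 16.3% of all. A match describes the letters in the window and not a bound site.

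**Figure D3:**
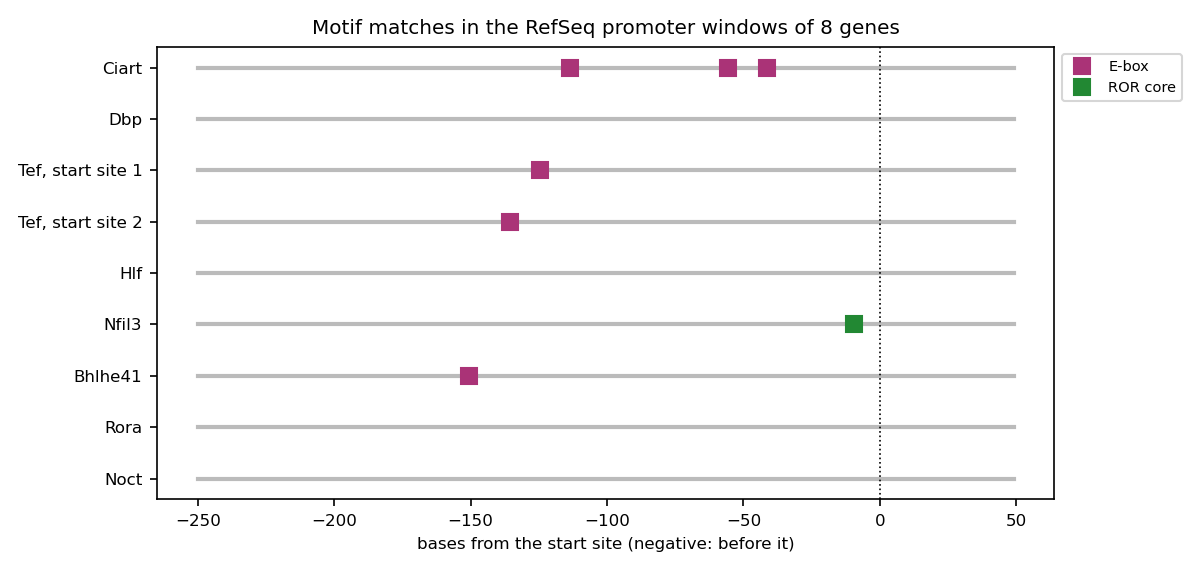
Positions of motif matches (x axis, bases from the start site) in the 9 RefSeq windows of 8 genes. The E-boxes of Ciart begin 116, 58 and 44 bases before the start site, and Dbp, Hlf, Rora and Noct have no match in the window.

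How the probes varied over the 6 arrays was compared by the root mean square distance of their profiles, each centred on its own mean. The closest pair was Hlf and Dbp probe A_55_P2032079, at 0.08, followed by Nfil3 with Rora, at 0.14, and Tef with Dbp probe A_55_P2032081, at 0.16. The distance is not scaled, so probes that varied little lie close whatever their pattern. Dbp probe A_55_P2032079 itself deviated from its mean by 0.08, Hlf and Nfil3 by 0.13 each, Rora by 0.26 and Tef by 0.29. A small distance is therefore not read as varying together. The profiles of both Dbp probes were 0.31 apart. Ciart was at least 1.29 from every other probe of the set, on WT values that are not well above background.

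By the same distance, the probes of other genes nearest to each member were found over the 6 arrays, with 1 probe per gene of the set. For Ciart, whose own profile deviated from its mean by 1.81, they were Kel, a red cell surface antigen (0.12), Prelid2 (0.21) and Trim59 (0.26), again with WT values of Ciart that are only upper bounds. For Bhlhe40 (own deviation 0.61) they were the noncoding RNA Norad, Frrs1 and the cold-induced RNA-binding protein gene Rbm3, at 0.07 to 0.08. Tef was nearest to Tmem106b, Prrc2c and Cnksr3 (0.02 to 0.03), and Rora to Oxsm, Bloc1s6 and Smc3 (0.02 each). Nfil3 was nearest to Ipo11, Fas and Rgl2, and Hlf to Slc18a1, Ddx31 and Farp1 (up to 0.04). Noct was nearest to Bcl3, Celsr1 and Bag3 (0.07 to 0.08), and Dbp probe A_55_P2032079 to Pgp, Hmg20b and Ssr1 (0.02 to 0.03).

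The other genes of these pathways were read from lists chosen for function, with earlier results of these data known. They held 66 genes in all, each read on its probe of the highest mean signal. The counts and p-values of the lists are therefore a description of these genes. Of the 60 measured, 23 rose and 4 fell (limma, adjusted over all probes), with a median difference of 0.37. Over all 15556 genes with a symbol and a tested probe, 18.6% were called higher and 10.7% lower, with a median of 0.11. Some genes stand in several lists. Without WT replicate 2, WT replicate 3, KO replicate 1 or KO replicate 3, 13, 3, 13 or 6 list genes were higher and 1, 0, 1 or 1 lower. The genes Nr1d1, Per3, Npas2 and Hey2 were well above background on no array and Fgf21 on 1 WT array, so they were not tested.

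In the core clock loop, 12 of 15 genes were measured, 4 rose, and none fell at the adjusted threshold or at an unadjusted p under 0.05 (median 0.43). Per1, a period repressor induced through E-boxes, read 1.72, 1.56 and 1.62 in WT and 2.51, 2.81 and 2.77 in KO. It rose 2.08-fold (difference 1.06, SE 0.12, limma adjusted p = 0.00697), with no overlap. Csnk1d, a kinase that marks PER proteins for degradation, rose by 0.64 (SE 0.09, limma adjusted p = 0.00939). Timeless rose by 0.66 (SE 0.15, limma adjusted p = 0.0265), and its second probe by 0.70. Cry1, a cryptochrome repressor, rose by 0.42 (SE 0.10, limma adjusted p = 0.0267). Arntl, the partner of Clock, read 0.39 higher (SE 0.14) and did not pass. With scan as a block, Per1, Csnk1d and Cry1 passed and Timeless did not, at differences of 1.17, 0.69, 0.54 and 0.45.

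Among PAR bZIP dependent liver genes, mostly enzymes of drug and fatty acid metabolism, 16 of 17 were measured, 8 rose, and none fell at the adjusted threshold or at an unadjusted p under 0.05 (median 0.72). The median was 0.44 after quantile normalization. The fatty acid hydroxylase gene Cyp4a14 read 1.90, 2.61 and 2.36 in WT and 6.40, 6.04 and 6.28 in KO. Cyp2b10, a P450 of drug metabolism, read -1.09, -1.45 and -1.35 in WT and 2.93, 1.97 and 2.60 in KO. In both genes the lowest KO array was KO replicate 2, and the groups lay far apart (limma adjusted p = 0.00218 and 0.00377). The acyl-CoA thioesterase gene Acot3 rose by 1.66 (SE 0.20, limma adjusted p = 0.00753). Por, the reductase that feeds electrons to P450 enzymes, rose by 0.76 (SE 0.11, limma adjusted p = 0.00989). All 4 also passed with scan as a block. Probes of the near-identical copies among the Acot and Cyp4a genes may share signal. The name of the list comes from its choice by function, and the part of DBP, TEF or HLF in these rises was not tested.

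Of the E-box clock outputs, 13 of 15 were measured, 6 rose and 1 fell (median 0.51). Besides Per1, Nampt, the rate-limiting enzyme of NAD salvage, rose by 0.73 (SE 0.09, limma adjusted p = 0.00751). It read -0.83, -0.79 and -0.71 in WT and -0.06, -0.03 and -0.04 in KO. The vasopressin receptor gene Avpr1a rose by 0.75 (SE 0.14, limma adjusted p = 0.0174). The gene that fell was Wee1, a kinase that holds back mitosis, by 0.88 (SE 0.11, limma adjusted p = 0.00753), well above background on 3 WT and 2 KO arrays. With scan as a block Per1, Nampt and Wee1 passed and Avpr1a, at 0.50, did not.

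ROR and REV-ERB target genes went both ways: of 13, 11 were measured, 3 rose and 2 fell. Their median of 0.08 turned to -0.13 with quantile normalization, -0.14 with normexp and -0.20 with cyclic loess. Besides Cry1, the sterol sensor gene Insig2 rose by 0.81 (SE 0.17, limma adjusted p = 0.0213), and its second probe by 1.01. Elovl3, a fatty acid elongase, read 5.38, 6.03 and 5.79 in WT and 3.10, 4.75 and 4.14 in KO. It fell 3.33-fold (difference -1.73, SE 0.43, limma adjusted p = 0.0326). The oxysterol hydroxylase gene Cyp7b1 fell by 0.83 (SE 0.18, limma adjusted p = 0.0230). With scan as a block Insig2, Elovl3 and Cyp7b1 did not pass, at 0.65, -0.98 and -0.74.

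Among family relatives of the set, 9 of 11 were measured, 3 rose and 1 fell (median 0.18). The bZIP genes Cebpd, Cebpb and Cebpg, which take part in acute phase and stress programmes, rose by 1.45 (SE 0.13), 0.69 (SE 0.10) and 0.86 (SE 0.16), and passed with scan as a block too. Cebpd had a limma adjusted p of 0.00609. Rorb, a relative of Rora, fell by 1.38 (SE 0.40, limma adjusted p = 0.0490), and read -0.49 within scan 1, where it did not pass. Its second probe read -0.88 and was not called.

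Of the 10 genes listed as deadenylases, all were measured. Not each of them is an established enzyme of poly(A) shortening or a relative of Noct. Angel2 alone was called higher, by 0.42 (SE 0.10, limma adjusted p = 0.0333), and lost the call with scan as a block, where it read 0.44. None was called lower, and 3 were higher and 1 lower at an unadjusted limma p under 0.05, which 12177 of all 27054 probes passed in either direction. Cnot8 read -0.28 (SE 0.08), Pan3 0.61 (SE 0.20) and Cnot6 0.26 (SE 0.09), none of them called. The median was 0.18, against 0.11 over all tested genes with a symbol.

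Without WT replicate 3, the number of genes called higher was 0 in the core loop, 2 among the PAR bZIP dependent genes, 0 among the E-box outputs, 0 among the ROR and REV-ERB targets, 1 among the relatives and 0 among the deadenylases. Without KO replicate 3 the numbers were 1, 3, 2, 0, 1 and 0 in the same order.

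**Figure D4:**
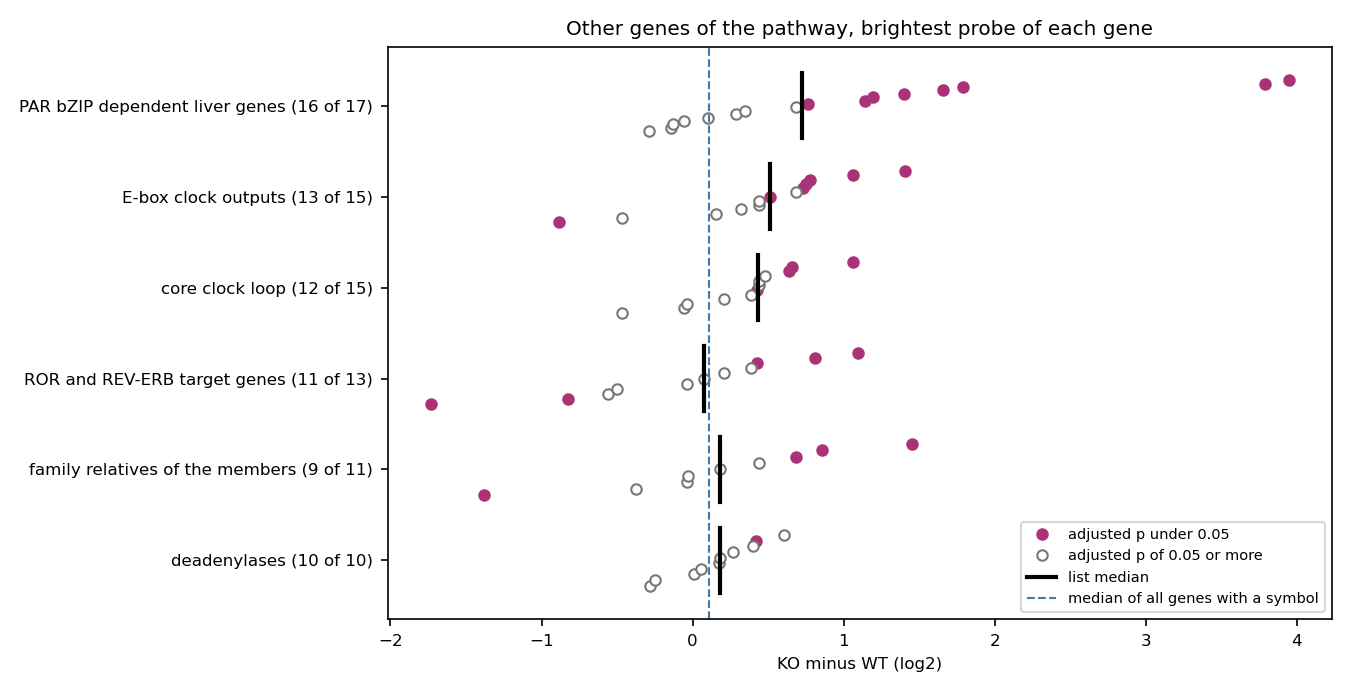
Difference between KO and WT (x axis, log2) for each measured gene of 6 lists, filled where the limma adjusted p was under 0.05. A black bar marks the list median, and a dashed line the median of all 15556 tested genes with a symbol (0.11). Cyp4a14 and Cyp2b10 stand at 3.95 and 3.79, and the ROR and REV-ERB targets have called genes on both sides of 0.

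The tissue label was read against cell type markers. All 8 hepatocyte markers, Alb and Ttr among them, were well above background on every array. Their summed level (log2) was 10.96 to 11.15 in WT and 11.07 to 11.35 in KO. All 8 were tested, 3 were called higher and 0 lower, and their median difference was 0.30. Other lists had summed levels that differed between the groups. Each sum follows its brightest genes, and not all genes of a list went the same way. Of the markers tested, 3 of 6 erythroid, 3 of 6 neutrophil, 2 of 5 macrophage, 2 of 5 endothelial and 2 of 3 stellate genes were called higher. In these lists 0 were called lower, though Elane of the neutrophil list read 2.41 to 2.44 in WT and 1.92 to 2.29 in KO. Col1a1 of the stellate list also read lower, at 1.21 to 1.93 in WT and 0.56 to 1.28 in KO. So did Pecam1 of the endothelial list, at 0.23 to 0.74 in WT and -0.08 to 0.44 in KO. Of 7 erythroid markers 4 were well above background on all arrays, and their summed level was 4.05 to 4.25 in WT and 5.35 to 5.80 in KO. Of 7 neutrophil markers 5 were, with 2.72 to 2.86 in WT and 3.11 to 3.90 in KO. The 5 macrophage markers on the array, all well above background throughout, summed to 3.26 to 3.49 in WT and 4.00 to 4.43 in KO. The 5 endothelial markers summed to 4.10 to 4.18 in WT and 4.42 to 4.87 in KO. The 5 stellate cell markers summed to 4.14 to 4.59 in WT and 4.68 to 4.88 in KO, with Reln and Des well above background on no array. The 6 pancreas acinar markers summed to 1.24 to 1.72 in WT and 0.81 to 0.95 in KO, and all 3 that were tested fell, with Cela1 and Cela2a well above background on no array. The 9 T, NK and innate lymphoid markers had no common direction: of 4 tested, 1 rose and 1 fell. Their sum, 1.47 to 1.60 in WT and 0.99 to 1.33 in KO, was mostly Cd3e, and Klrb1c, Eomes, Ncr1 and Il7r were well above background on no array. The sums of the 4 B cell markers (-0.23 to -0.08 in WT, -0.67 to -0.20 in KO) and of the 5 bile duct markers (-0.01 to 0.55 and 0.30 to 0.66) overlapped between the groups. In bulk liver, fewer cells of a type and less RNA per cell cannot be told apart. The part of these markers in the values of the clock output genes was not tested.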

How the data were processed

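Gene expression was measured in 6 liver samples (3 WT, 3 Sec15 KO), 1 array each. Per the file headers, the deposited intensity of a spot is its processed signal from Agilent Feature Extraction 11.0.1.1, background-subtracted and not normalized between arrays. The deposited files also hold other flags per spot (well above background, saturated, outlier), coded 0 or 1. Outlier and control spots were left out (178 to 236 outliers per array), spots of a probe were averaged on the log2 scale, and each array's 75th percentile was subtracted. Probes were named through their accession in a RefSeq table (GRCm38.p6, names only): 27234 matched 1 symbol and 12195 none. Probes well above background on at least 3 arrays were fitted with limma 3.58.1 (lmFit, eBayes) in R 4.3.3, with data.table version 1.17.8 and jsonlite version 2.0.0, with Benjamini-Hochberg adjustment over 27054 probes. In simulated data of that size, 41 of 100 probes given a 2-fold change and 76 of 100 given a 4-fold change were called, beside 8 false calls. Only these probes were changed, a smaller share than was called in the real data, which makes the adjusted threshold stricter. The recovered numbers are therefore not the power of the fit to the real data.

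Members and lists were chosen with earlier results of these data known. Named are every member probe, up to 4 genes per list with the smallest p and any gene counted alone, and Arntl and second probes of named genes were added after their values were seen. Alternatives were quantile normalization, median centring, cyclic loess, normexp (offset 50, on median signals) with quantile normalization, a filter on all 6 arrays or none, eBayes with trend and robust, replicate number or scan as a block, WT replicates 1 and 2 averaged, the mean of a gene's probes, and each array left out. The number of arrays limits the precision.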

Additional observations from a re-analysis of the deposited data

How the results depend on the processing

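Ciart has no value under the filter on all 6 arrays, since its WT signals are not well above background; it enters the other fits through its KO arrays alone, so its calls there say nothing about stability. The number of member probes called higher, 3, was 5 with trend and robust eBayes and 1 with scan as a block, and ranged from 1 to 3 with 1 array left out; 0 were called lower under any alternative. Their median difference of 0.45 was 0.20 with cyclic loess and 0.28 with normexp, and 0.39 to 0.53 with 1 array left out. Over all probes, 4595 higher became 2947 with cyclic loess, 2932 with no filter and 1312 with scan as a block, and 204 to 6814 with 1 array left out; 3145 lower became 1215 with scan as a block and 151 to 5792 with 1 array left out. Of the list genes, 23 higher became 14 with scan as a block and 3 to 24 with 1 array left out; 4 lower became 2 with no filter, 1 with scan as a block, 2 with WT replicates 1 and 2 averaged, and 0 to 6 with 1 array left out. A fit without 1 array has 5 arrays, and the fit with scan as a block compares KO replicate 2 with WT, assuming that this lone array varies like the others; the cause of the other shifts was not tested. Same-numbered samples correlated at 0.10, 0.11 and 0.02 in their deviations from the group means, not all over 0.1, so the numbers were not taken as pairs; with the replicate number as a block, 1 member probe (Ciart) was called higher, and 3431 probes were higher and 2696 lower. Median centring moved the median of all probes from 0.08 to 0.19. Signal over background limits Ciart in WT and Bhlhe41 in both groups.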
